A study of Mus musculus with 4 samples.

Results

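Trimethylation of lysine 9 on histone H3 (H3K9me3) was mapped in CD8+ T cells on day 3 of stimulation and in naive CD8+ T cells (day 0), and the regions described here are dense H3K9me3 islands that were listed in the naive cells and had no island nearby on day 3. An island is a stretch of the genome that the authors' peak caller listed as enriched, with a raw count of ChIP reads. Members were the islands of the day 0 list on chromosomes 1 to 19 that held at least 34.2 reads per kb and had no day 3 island within 5 kb. The limit is the read density of the least dense autosomal day 3 island, 34.1 reads per kb, rounded up. The rule chose 4738 of the 19984 autosomal day 0 islands (23.7%, 95% Wilson interval 23.1 to 24.3%), out of 67542 islands in both lists. They are called naive-only dense islands below, which says that no island was listed nearby on day 3 and does not say that the mark was absent there.

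The day 3 cells were wild-type C57BL/6 mouse CD8+ T cells stimulated in vitro through CD3 and CD28 by antibodies, in medium with interleukin-2, and the day 0 cells were naive CD8+ T cells of the same strain and genotype. Both were profiled by native ChIP, in which chromatin is cut with micrococcal nuclease without cross-linking, from the same number of cells a library. There was 1 ChIP library per day, so differences between days are differences between 2 libraries, with no replicate check and no test. The sources used here do not give the age of the mice, the number pooled or the purity of the cells. The authors' lists held 47553 islands with 10423178 reads on day 3 and 19989 islands with 3402787 reads on day 0. All 6 CD8 T cell marker genes (Cd8a, Cd8b1, Cd3d, Cd3e, Cd3g and Thy1) were free of islands on both days, and so were the 3 natural killer markers. Among the 5 B cell markers, 2 had an island on day 3 and 1, Ebf1, on day 0. Among the 5 myeloid markers, 1 had an island on day 3 and 2, Csf1r and Siglech, on day 0, and of the 2 helper T markers Cd4 had one on day 0. Of all autosomal protein-coding genes 28.7% had a day 3 island, with 6.63% of those under 10 kb and 25.2% from 10 to 50 kb. A gene free of islands was thus common, and its absence from marker genes is no trait of them. Islands record chromatin and not expression, so these counts do not measure the purity of either population.

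H3K9me3 marks heterochromatin, the compact and mostly silent part of the genome. Methyltransferases such as SETDB1 and SUV39H1 write the mark, HP1 proteins bind it, and KDM4 demethylases remove it. In T cells the mark is known to cover repeats, gene-poor chromatin and genes of other lineages, and activation is accompanied by broad changes in chromatin compaction.

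Islands over gene starts put the mark where transcription begins, so the promoter sequences inside naive-only dense islands are shown first. A promoter window of 300 bases (250 before to 50 after an annotated start) lay wholly inside such an island for 59 of 20085 windows of protein-coding genes (0.294%), which belonged to 55 genes. The first 4 sequences below belong to genes of immune surface biology. Gcnt1 encodes an enzyme that branches O-glycans on T cell surface proteins. Il31ra and Il17re encode receptor subunits for interleukins, and Ccr6 encodes the receptor for the chemokine CCL20. Fcrl5, an Fc receptor-like gene of B cells, and Zbtb18, a zinc finger repressor, complete the set, and Fcrl5 was picked after its value was seen. Sequences are from RefSeq on GRCm38.p6, the assembly behind mm10, in the direction of transcription, with CG dinucleotides in capitals.
Gcnt1: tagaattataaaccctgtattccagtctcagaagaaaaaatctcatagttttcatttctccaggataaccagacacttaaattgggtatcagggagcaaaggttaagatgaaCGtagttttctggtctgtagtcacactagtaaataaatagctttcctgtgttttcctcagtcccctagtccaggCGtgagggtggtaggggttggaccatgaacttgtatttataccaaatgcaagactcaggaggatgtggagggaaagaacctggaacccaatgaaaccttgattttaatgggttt
Il31ra: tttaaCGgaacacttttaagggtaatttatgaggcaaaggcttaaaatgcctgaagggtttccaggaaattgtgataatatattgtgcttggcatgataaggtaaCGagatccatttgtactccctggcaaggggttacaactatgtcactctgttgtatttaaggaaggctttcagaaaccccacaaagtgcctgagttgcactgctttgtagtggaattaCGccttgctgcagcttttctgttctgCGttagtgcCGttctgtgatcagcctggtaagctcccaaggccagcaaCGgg
Il17re: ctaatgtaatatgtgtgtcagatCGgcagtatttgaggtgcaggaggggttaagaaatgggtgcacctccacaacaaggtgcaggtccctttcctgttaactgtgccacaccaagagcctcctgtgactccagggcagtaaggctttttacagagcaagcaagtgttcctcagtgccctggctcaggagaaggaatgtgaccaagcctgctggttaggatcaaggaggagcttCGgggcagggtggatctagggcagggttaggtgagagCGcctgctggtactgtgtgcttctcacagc
Ccr6: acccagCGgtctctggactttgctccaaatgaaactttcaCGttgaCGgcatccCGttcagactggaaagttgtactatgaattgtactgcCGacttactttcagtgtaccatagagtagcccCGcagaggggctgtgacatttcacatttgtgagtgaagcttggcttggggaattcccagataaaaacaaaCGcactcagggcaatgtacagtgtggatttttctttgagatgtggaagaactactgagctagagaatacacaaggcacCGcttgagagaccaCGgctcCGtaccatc
Fcrl5: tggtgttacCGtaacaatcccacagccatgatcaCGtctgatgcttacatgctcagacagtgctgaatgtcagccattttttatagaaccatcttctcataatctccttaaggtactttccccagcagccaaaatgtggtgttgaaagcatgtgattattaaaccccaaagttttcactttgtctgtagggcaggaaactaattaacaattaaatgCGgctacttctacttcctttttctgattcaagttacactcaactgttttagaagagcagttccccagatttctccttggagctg
Zbtb18: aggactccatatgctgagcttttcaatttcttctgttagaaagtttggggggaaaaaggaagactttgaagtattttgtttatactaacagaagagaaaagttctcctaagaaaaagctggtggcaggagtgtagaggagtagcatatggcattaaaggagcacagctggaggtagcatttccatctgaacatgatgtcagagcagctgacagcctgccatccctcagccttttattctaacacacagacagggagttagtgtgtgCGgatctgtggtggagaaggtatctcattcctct

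The Gcnt1 window was chr19:17372795-17373094 on the minus strand, inside an island of 220 reads at 40.7 reads per kb, with 24.4 kb to the nearest day 3 island. The Il31ra window was chr13:112580613-112580912 on the minus strand, in an island of 283 reads at 38.2 reads per kb and 14.8 kb from day 3 islands. The Il17re window was chr6:113458521-113458820 on the plus strand, in an island of 264 reads at 35.7 reads per kb. The nearest day 3 island to Il17re was 272.2 kb away, the farthest of the 6. The Ccr6 window was chr17:8242276-8242575 on the plus strand, in an island of 155 reads at 35.2 reads per kb and 46.0 kb from day 3 islands. It lies within the annotated gene body (8236041 to 8258519), so it belongs to an internal start and not to the first one. The Fcrl5 window was chr3:87435532-87435831 on the plus strand, in an island of 220 reads at 34.4 reads per kb, only 5.8 kb from a day 3 island. The Zbtb18 window was chr1:177444403-177444702 on the plus strand, in an island of 117 reads at 36.6 reads per kb that also held 3 other windows of the gene. All of these lie within the annotated gene body (177442351 to 177450764), so they too belong to internal starts and not to the first one. The windows hold 2 CG dinucleotides in Gcnt1, 6 in Il31ra, 3 in Il17re, 10 in Ccr6, 3 in Fcrl5 and 1 in Zbtb18, so Ccr6 has the most of these 6 and Zbtb18 the fewest.

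Over all 59 windows the median was 1.0 CG dinucleotide per 100 bases (quartiles 0.5 and 1.67), against 1.0 in the 258 windows inside all other day 0 islands and 4.67 in all 20078 windows of complete sequence. The median GC content was 45.0% inside naive-only dense islands, 44.7% inside the other day 0 islands and 57.0% overall. Each motif named next was searched on both strands. TATAAA occurred in 16 of the 59 windows (27.1%), in 22.9% of those in other day 0 islands and in 12.7% of all windows. The 4 overlapping or neighbouring windows of Zbtb18, all in a single island, are among the 16, so these windows are not independent. GGGCGG occurred in 13.6% (7.03 to 24.5%), 15.9% and 47.0%. CCAAT occurred in 44.1%, 38.4% and 38.1%, and CACGTG in 1.69%, 5.43% and 7.89%. The windows in naive-only dense islands thus differed from promoters at large in base composition and lay close to those in other day 0 islands. Of the printed windows, those of Gcnt1, Fcrl5 and Zbtb18 contain TATAAA, and that of Gcnt1 contains CCAAT. A match to these letters describes the sequence and is not a binding site. A minority of windows were rich in CG, with 25 CG dinucleotides in a window of Gdpd1 and in one of Tmem8b and 24 in that of Mtr, the methionine synthase gene.

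Of 919 autosomal microRNA hairpins, the precursors of the mature sequences, 2 overlapped naive-only dense islands. Dense day 0 islands with a day 3 island within 5 kb overlapped 7. Less dense day 0 islands overlapped 4 where no day 3 island lay within 5 kb and 8 where one did. In the separate set of mature sequences, those of 3 microRNA genes lay inside 2 naive-only dense islands. That is more genes than the 2 hairpins, so the hairpin counts can be too low. These mature sequences are shown with the seed (bases 2 to 8) in capitals, from RefSeq on GRCm38.p6. The first 3 lie in a single island.
mmu-miR-365-1-5p: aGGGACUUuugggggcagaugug
mmu-miR-365-3p: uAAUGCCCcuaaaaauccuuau
mmu-miR-6365: uUAGCCUUuaauauauuuguug
mmu-miR-496b: cAACAUGGccaauuccuuucau

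The 4 seeds differ from each other. The island over Mir365-1 and Mir6365, chr16:13453801-13474600, was the longest of all 4738, with 745 reads over 20800 bp, 35.8 reads per kb (exact 95% Poisson interval 33.3 to 38.5). It held 3 lncRNA genes and no protein-coding gene, and the nearest day 3 island was 104.6 kb away. The island over Mir496b, chr19:16310601-16316400, held 218 reads at 37.6 reads per kb (32.8 to 42.9) and lay 8.2 kb from a day 3 island.

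Members were chosen on day 0 density and on the distance to day 3 islands, and these values are given here as a description. The 4738 islands covered 19.2 Mb and held 714035 reads. Their median length was 3800 bp (quartiles 3200 and 4600, range 1200 to 20800), their median count 140 reads (121 and 167) and their median density 36.8 reads per kb (35.3 and 39.0, highest 116). Density was close to the limit for most of them. At the limit, 224 members lay within 0.2 reads per kb above it and 253 islands without a day 3 neighbour lay within 0.2 below it, up to 34.194 reads per kb. A count of 140 reads over 3800 bp has an exact Poisson interval of 31.0 to 43.5 reads per kb, which spans the limit, and only 645 members (13.6%) had a lower bound at or above it. At least 40 reads per kb were reached by 907 members, at least 50 by 57 and at least 60 by 13. At the distance limit, 45 members had a day 3 island 5.2 kb away, and 57 dense islands were left out at exactly 5.0 kb. All intervals cover counting error alone, since PCR copies cannot be told from separate molecules without molecular identifiers.

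The distance to the nearest day 3 island had quartiles of 11.4, 22.6 and 50.2 kb and reached 2079.8 kb. A day 3 island lay within 20 kb of 2176 members (45.9%), while 1190 (25.1%) had none within 50 kb and 177 had none within 200 kb. Densities are not scaled for depth between days. Where a day 3 island overlapped a dense day 0 island, in 3614 pairs, its density was a median 1.45 times the day 0 density (quartiles 1.35 and 1.59). Over all islands the median density was 52.9 on day 3 and 34.1 on day 0, in reads per kb.

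The autosomal day 0 islands outside the rule fall into 3 classes, used for comparison below. The 4955 dense islands with a day 3 island within 5 kb had nearly the same density (median 36.8 reads per kb) and length (4000 bp) as the naive-only dense islands. The 5443 less dense islands without a day 3 neighbour had medians of 31.9 reads per kb, 5200 bp and 165 reads. The 4848 less dense islands with one had 32.0 reads per kb, 5600 bp and 174 reads. Less dense islands were thus longer and held more reads than the naive-only dense islands, with their median of 140 reads. The limit of 34.2 lies next to the day 0 median of 34.1 reads per kb, so dense does not mean a higher read count. Neighbouring islands are not independent, so intervals on shares of islands are descriptive.

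Naive-only dense islands lay in protein-coding genes less often than equally dense islands with a day 3 neighbour. A protein-coding gene body was overlapped by 2279 of them (48.1%, 46.7 to 49.5%), against 57.6% (56.2 to 58.9%) of the dense islands with a day 3 island nearby. The difference was -9.46 percentage points (95% Newcombe interval -11.4 to -7.47), and it had the same direction on 19 of 19 autosomes. It was also present at each length, with 48.4% against 52.4% in islands up to 3000 bp, 47.2% against 56.6% from there to 5000 bp and 51.1% against 63.8% in longer ones. Against the less dense islands without a day 3 neighbour (48.9%) the difference was -0.807 points (-2.75 to 1.14), an interval that includes 0. Islands overlapping a lncRNA gene and no protein-coding gene made up 9.98% of the naive-only dense islands and 6.07% of the dense ones with a day 3 neighbour, a difference of 3.91 points (2.83 to 4.996). No annotated gene at all was overlapped by 40.6% and 35.1%, a difference of 5.51 points (3.58 to 7.44). The less dense islands without a day 3 neighbour had 10.3% and 39.1% in these 2 positions, and the intervals of their differences from the naive-only dense islands (-1.48 to 0.875 and -0.417 to 3.39 points) included 0.

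**Figure D1:**
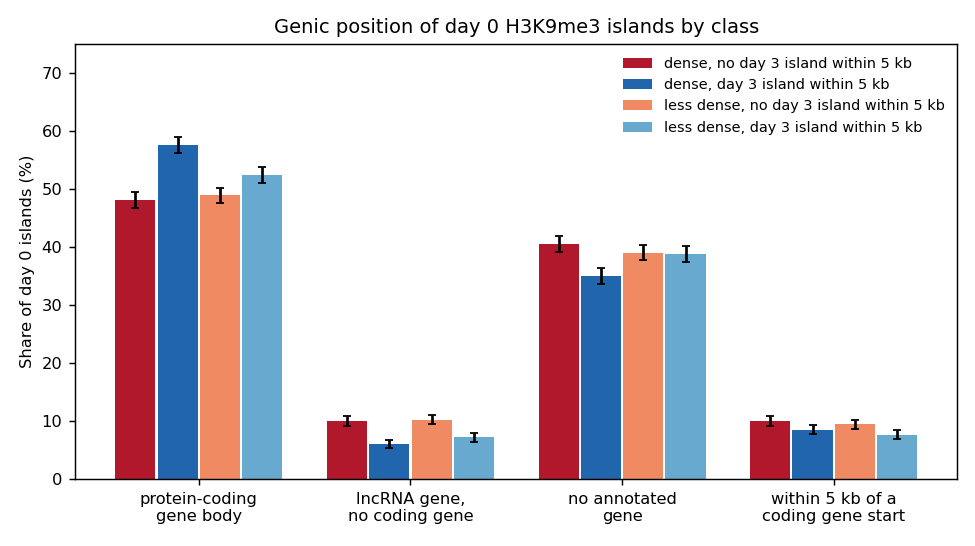
Share of day 0 islands (%, vertical axis) in 4 kinds of position (horizontal axis) for the 4 classes of autosomal day 0 islands. Bars are shares and error bars 95% Wilson intervals. The naive-only dense islands (leftmost bars) overlap protein-coding genes at 48.1%, below the 57.6% of dense islands with a day 3 island within 5 kb and close to the 48.9% of less dense islands without one.

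In the plot of genic positions the classes without a day 3 neighbour lie close together, at 48.1% for the naive-only dense islands and 48.9% for the less dense ones, and those with one lie higher, at 57.6% and 52.5%. Promoter windows were rare targets in both dense classes, overlapped by 1.48% of naive-only dense islands and 1.46% of dense islands with a day 3 neighbour. The less dense islands without a day 3 neighbour had 2.10%, so naive-only dense islands differed from them by -0.626 points (-1.15 to -0.0946). On the 18 autosomes with promoter windows, a gene start lay within 5 kb of 10.1% of naive-only dense islands. Dense islands with a day 3 neighbour had 8.51%, a difference of 1.58 points (0.401 to 2.77). Less dense islands without a day 3 neighbour had 9.47%, a difference of 0.616 points (-0.563 to 1.805), an interval that includes 0. The nearest gene start was a median 53.1 kb from a naive-only dense island and 60.4 kb from a dense island with a day 3 neighbour, and the 1 Mb around them held a median of 7 and 6 protein-coding genes. In genes of at least 20 kb with a known strand, 1629 naive-only dense islands fell 30.6% in the first, 33.0% in the middle and 36.3% (34.0 to 38.7%) in the last of 3 equal parts of the body. Dense islands with a day 3 neighbour fell 30.7%, 37.4% and 31.9% (30.0 to 33.9%) in the same parts, with the middle part as the fullest. The gene table gives no exons, so exons and introns were not separated.

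All 19 autosomes carried naive-only dense islands. Their share of day 0 islands was highest on chromosome 7 (28.4%, 25.6 to 31.4%) and chromosome 11 (27.3%, 24.6 to 30.1%) and lowest on chromosome 16 (18.7%, 16.1 to 21.6%) and chromosome 15 (19.7%, 16.8 to 22.9%). The other 15 lay between 21.6% and 26.5%, with intervals that overlap each other. Day 3 islands were sparser on the first pair, with 12.7 per Mb on chromosome 7 and 14.2 on chromosome 11, than on the second, with 23.6 on chromosome 16 and 19.95 on chromosome 15. Chromosome 8 had 14.7 day 3 islands per Mb and a share of 22.1%, below that of all autosomes. The part of this density in the shares was not tested. Along the chromosomes, 20.7% (19.6 to 21.9%) of naive-only dense islands lay in the last of 5 equal parts, farthest from the centromere end, against 16.5% (15.5 to 17.5%) of dense islands with a day 3 neighbour. The less dense islands without a day 3 neighbour had 21.1% in the last part, near the share of the naive-only dense islands. The first part held 16.3%, 16.5% and 16.1% of the 3 classes.

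**Figure D2:**
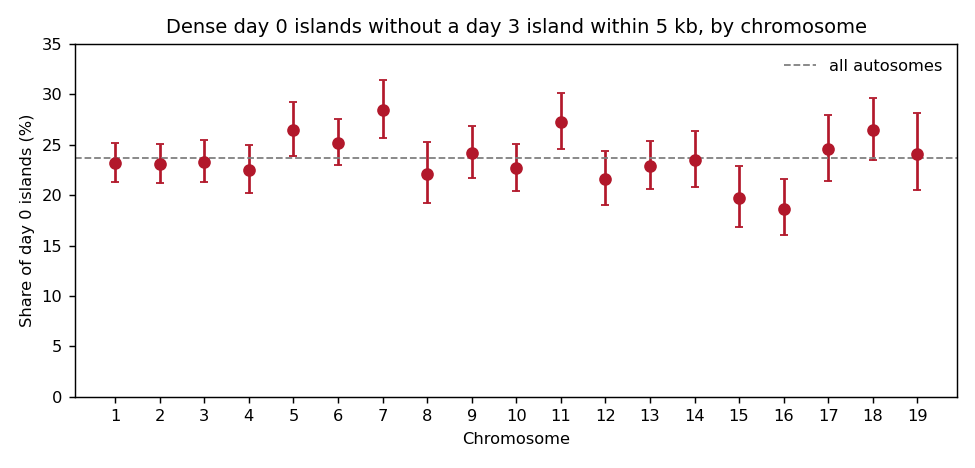
Naive-only dense islands as a share of all day 0 islands (%, vertical axis) on each autosome (horizontal axis), with 95% Wilson intervals as bars and the share over all autosomes (23.7%) as a dashed line. Chromosomes 5, 7 and 11 lie above the line and chromosomes 15 and 16 below it, with intervals that do not reach it.

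The surroundings of naive-only dense islands held fewer day 3 islands than those of dense islands with a day 3 neighbour. From 5 to 50 kb on either side, day 3 islands covered 8.87% and day 0 islands 6.20% of bases around naive-only dense islands, a ratio of 1.43. Around dense islands with a day 3 neighbour the shares were 18.7% on day 3 and 9.22% on day 0, a ratio of 2.03. Around less dense islands without a day 3 neighbour they were 7.60% and 5.14%. The autosomes as a whole were covered to 8.07% on day 3 and 4.08% on day 0, a ratio of 1.98. Thus day 3 coverage around naive-only dense islands was near the autosomal level, while day 0 coverage was above it. Bases within 5 kb are left out because the rule used them, and the rule also favours places with few day 3 islands.

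**Figure D3:**
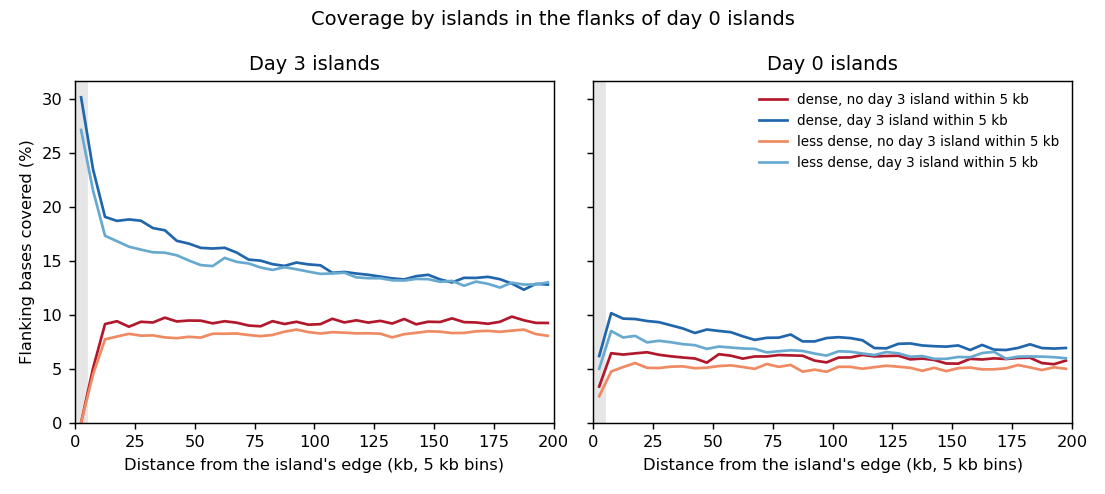
Share of flanking bases covered by day 3 islands (left) and day 0 islands (right), in % on the vertical axis, against the distance from the island's edge in kb (5 kb bins, horizontal axis), for the 4 classes of day 0 islands. The grey band marks the 5 kb used by the rule. From the bin centred on 12.5 kb (9.15%) the line of the naive-only dense islands stays flat on day 3, while the classes with a day 3 neighbour start high and decline with distance.

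Naive-only dense islands were less clustered than dense islands with a day 3 neighbour. Another one lay within 100 kb for 2211 of them (46.7%, 45.2 to 48.1%), against 62.1% (60.7 to 63.4%) of the others, counted within their own class. The median distance to the next of the same class was 111.4 kb and 61.4 kb. Less dense islands without a day 3 neighbour were still sparser, with 42.8% within 100 kb of another and a median of 125 kb. Linked by gaps of up to 100 kb they formed 3429 runs, of which 2527 held a single island and 86 held 4 or more. In windows of 1 Mb, 1799 of 2470 held at least 1, 133 held 6 or more, and 23 held some without the midpoint of any day 3 island. The fullest window, with 13, was chr6:148000001-149000000 around Tmtc1, Ipo8 and Dennd5b, where 26 day 3 islands also lay. The next, with 11 each, were on chromosome 1 around Uxs1 and Fhl2 and on chromosome 13 around Map3k1, which encodes a kinase of stress signalling.

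The run with the most islands held 8 over 290.6 kb, chr1:43632601-43923200, with 2 in Uxs1, a gene of sugar nucleotide synthesis, and 6 outside protein-coding genes. Its densities were 35.7 to 45.3 reads per kb, and 4 day 3 islands lay in the same span. A run of 7 over 160.8 kb, chr1:45780801-45941600, contained Slc40a1, which encodes ferroportin, the cellular iron exporter. Slc40a1 itself (chr1:45908070-45926532) was touched by 3 of them, with 139, 106 and 303 reads at 38.6, 48.2 and 35.2 reads per kb, and by 1 less dense day 0 island of 214 reads. It had no day 3 island in its body, but nearly all of the body lies within 5 kb of these 3 islands, where the rule allows none. Another run of 7 over 284.4 kb, chr3:142487001-142771400, crossed the guanylate-binding protein genes, a family of interferon-induced GTPases of cell-autonomous defence. Gbp5 carried an island of 169 reads at 38.4 reads per kb, and Gbp2b carried islands of 132 and 174 reads at 36.7 and 36.3 reads per kb. The same run reached Kyat3 (284 reads at 35.5 reads per kb) and Gtf2b, a general transcription factor gene (108 reads at 41.5 reads per kb). Over the whole span there were 2 day 3 islands and 10 day 0 islands.

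A run of 6 on chromosome 4, chr4:106941601-107235600, had no day 3 island in its 294.0 kb. Its islands touched Ssbp3 with 183 and 110 reads, Cyb5rl with 181, Cdcp2 with 143, Tmem59 with 141 and Lrrc42 with 125, all at 34.8 to 37.1 reads per kb. The nearest day 3 island lay between 132.6 and 421.4 kb from each. A run of 6 on chromosome 11, chr11:68573801-68849800, put 3 islands in Myh10, which encodes a non-muscle myosin heavy chain, with 204, 171 and 118 reads, and 1 in Ndel1, a dynein regulator, with 185 reads. That span held 1 day 3 island. Runs of 7 on chromosome 3 (chr3:14908601-15175800) and of 6 on chromosome 13 (chr13:44332201-44701600) overlapped no protein-coding gene.

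At least 1 bp of a naive-only dense island lay in 1820 of 20665 autosomal protein-coding genes (8.81%) and in 599 of 12408 lncRNA genes (4.83%). Gene length moved with this count. The 1820 genes had a median body of 90.9 kb, against 15.3 kb in the genes without one. A naive-only dense island was found in 1.06% of genes under 10 kb, 5.66% from 10 to 50 kb, 21.3% from 50 to 200 kb, 44.3% from 200 to 500 kb and 59.3% above 500 kb. Per Mb of gene body the same classes held 2.53, 2.47, 2.81, 2.22 and 1.39 islands, so the longest genes had the fewest per base. An island counts here if it touches a body by 1 bp, which raises the rate of short genes. Of the 1820 genes, 1161 also had a day 3 island elsewhere in the body. The other 659 (36.2%) had none there, which is 3.19% of all protein-coding genes. A day 3 island lay in 28.7% of all protein-coding genes, in 6.63% of those under 10 kb and in 97.2% above 500 kb. In short bodies the rule itself leaves little room for one. Another day 0 island outside the rule lay in 991 of the 1820 genes. Most genes, 1433, had a single naive-only dense island, 387 had 2 or more and 11 had 5 or more.

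Among genes of naive and memory T cells, 5 of 23 carried a naive-only dense island (21.7%, beside 8.81% of all protein-coding genes, with a median body of 36.1 kb in the list). Bach2, a repressor that restrains effector differentiation, had islands of 172 and 131 reads (34.4 and 34.5 reads per kb), and over the whole body day 3 islands covered 3.2 kb and day 0 islands 28.4 kb. Ets1, a transcription factor of T cell development, had islands of 128 and 152 reads (37.6 and 34.5 reads per kb) and no day 3 coverage in its 121.58 kb, against 7.8 kb on day 0. Ikzf1, which encodes Ikaros, had 1 island of 137 reads at 34.3 reads per kb, with 5.0 kb covered on day 3 and 4.0 kb on day 0. Ikzf2, which encodes Helios, had 1 of 261 reads at 38.4 reads per kb, with 32.2 kb covered on day 3 and 42.6 kb on day 0. Dapl1 had 1 of 160 reads at 36.4 reads per kb, 6.0 kb from a day 3 island, with 1.0 kb covered on day 3 and 4.4 kb on day 0. Only Ets1 of the 5 was without any day 3 island. All 7 islands in these genes had a Poisson lower bound under the limit of the rule.

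Of 25 effector genes, 2 carried a naive-only dense island (8.0%, near the 8.81% of all protein-coding genes). Gzma, which encodes the cytotoxic serine protease granzyme A, was covered over 6.58 of its 7.16 kb (91.9%), the highest share of any gene of at least 2 kb. The island, chr13:113092801-113100400, held 262 reads at 34.5 reads per kb (30.4 to 38.9). The nearest day 3 island was 7.8 kb away, and the distance limit of the rule by itself leaves no room for one in the body. Zeb2, a transcriptional repressor active in terminal effector cells, had an island of 159 reads at 39.8 reads per kb, with 31.7 kb covered on day 3 and 30.4 kb on day 0. Among 15 inhibitory receptor and exhaustion genes, Tox alone carried one (6.67%, below that share), of 134 reads at 35.3 reads per kb. Tox, an HMG-box factor of exhausted cells, had 87.4 kb under day 3 islands and 45.6 kb under day 0 islands, so that island was a small part of its day 0 coverage.

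Helper T cell genes had 3 of 19 with a naive-only dense island (15.8%, beside 8.81% of all protein-coding genes), Rora, Ccr6 and Il1rl1. Rora, a nuclear receptor of Th17 and innate lymphoid cells, had islands of 147 and 127 reads (35 and 37.4 reads per kb), with 28.8 kb covered on day 3 and 30.0 kb on day 0. Il1rl1, which encodes the receptor for interleukin-33, had 1 of 129 reads at 37.9 reads per kb, with 4.8 kb on day 3 and 9.2 kb on day 0. Ccr6 had no day 3 coverage, against 4.4 kb on day 0. Chemokine receptor and migration genes had 3 of 20 (15%), Ccr6, Ccr1 and Itgae. Ccr1, a receptor for inflammatory chemokines, had an island of 126 reads at 35 reads per kb over 3.6 of its 6.57 kb (54.8%). Itgae, which encodes the CD103 integrin subunit of tissue-resident T cells, had 1 of 140 reads at 36.8 reads per kb over 3.8 kb. Ccr6, Ccr1 and Itgae were all without day 3 coverage, which in the short body of Ccr1 and in much of that of Ccr6 follows from the rule.

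**Figure D4:**
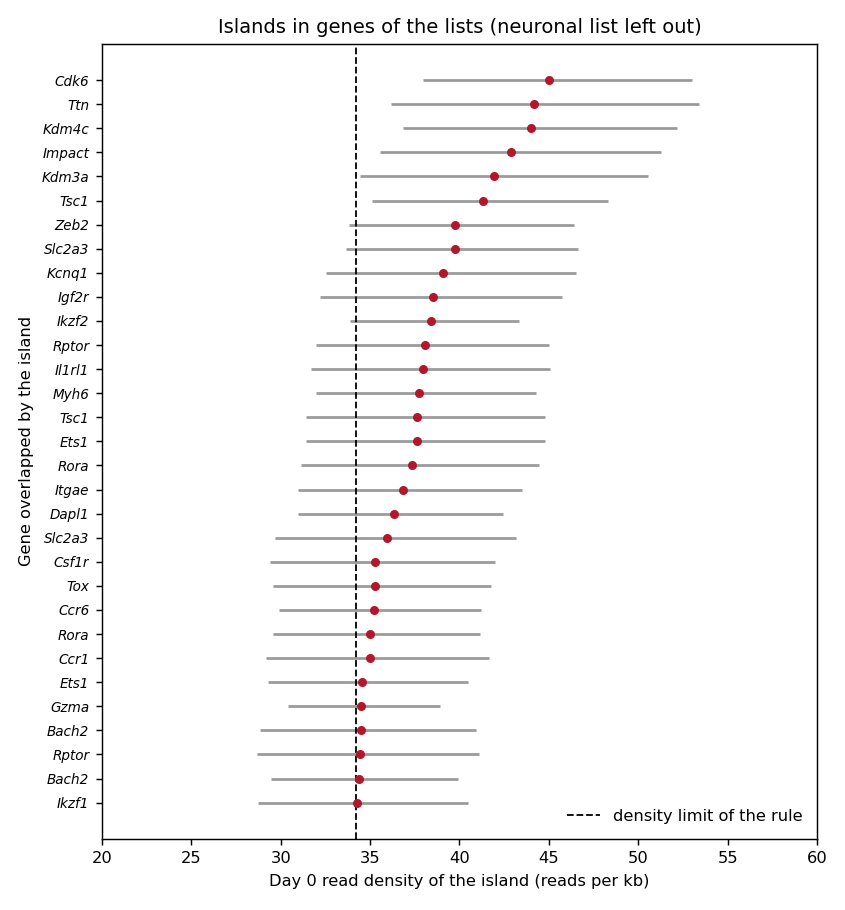
Day 0 read density (reads per kb, horizontal axis) of each naive-only dense island that overlaps a gene of the lists, the neuronal list left out, named by gene (vertical axis), with exact 95% Poisson intervals as grey lines and the limit of the rule as a dashed line. Most intervals cross the limit, and the points range from Ikzf1 at 34.3 to Cdk6 at 45.0 reads per kb.

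The plot of densities in listed genes shows how close most of these islands lie to the limit. The intervals of Cdk6, Ttn, Kdm4c, Impact, Kdm3a and 1 of the Tsc1 islands stayed above it. Metabolism and PI3K signalling genes had 3 of 21 (14.3%, beside 8.81% of all protein-coding genes, with a median body of 68.6 kb). Slc2a3, which encodes the high-affinity glucose transporter GLUT3, had islands of 115 and 151 reads (35.9 and 39.7 reads per kb) and no day 3 coverage, and the nearest day 3 islands were 268.4 and 298.2 kb away. Rptor, a subunit of mTORC1, had 124 and 137 reads (34.4 and 38.1 reads per kb), with 2.2 kb covered on day 3 and 13.4 kb on day 0. Tsc1, an inhibitor of mTORC1, had 128 and 157 reads (37.6 and 41.3 reads per kb), with 4.4 kb on day 3 and 13.8 kb on day 0.

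Genes of H3K9 methylation and heterochromatin had 2 of 20 (10%, near the 8.81% of all protein-coding genes), and both encode H3K9 demethylases. Kdm4c had an island of 132 reads at 44.0 reads per kb, 6.4 kb from a day 3 island, with 43.8 kb of the gene covered on day 3 and 8.8 kb on day 0. An island of 109 reads at 41.9 reads per kb touched Kdm3a by 0.231 kb. Imprinted genes had 3 of 21 (14.3%). Igf2r, which encodes the receptor that clears IGF2, had 131 reads at 38.5 reads per kb and a day 3 island no closer than 246.0 kb. Impact had 120 reads at 42.9 reads per kb and no day 3 coverage. Kcnq1 had 125 reads at 39.1 reads per kb in a body with 33.0 kb of day 3 and 50.8 kb of day 0 islands. The cell cycle list had Cdk6 of 18 genes, a kinase of G1 progression, with 144 reads at 45.0 reads per kb, 6.0 kb from a day 3 island.

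Genes of other lineages differed in their counts. The neuronal list had 14 of 20 (70.0%), with a median body of 1117 kb and 1.21 naive-only dense islands per Mb of body, below the 2.34 of all protein-coding genes. In Dlg2, a synaptic scaffold gene, the 3 islands made up 16.4 kb beside 323.8 kb covered on day 3 and 118.2 kb on day 0. Snap25, a short gene of the list that encodes a synaptic fusion protein, had 139 reads at 36.6 reads per kb and no day 3 coverage. The myeloid list had Csf1r, the receptor for colony-stimulating factor 1, of 14 genes, with 127 reads at 35.3 reads per kb, no day 3 coverage and 83.2 kb to the nearest day 3 island. The liver and muscle list had Ttn and Myh6 of 17, and Myh6 was touched by 0.08 kb only. No naive-only dense island lay in any of 25 T cell receptor signalling genes, 23 survival and cytokine receptor genes, 16 housekeeping genes, 15 germline genes, 12 B cell genes or 12 natural killer genes. These counts stand beside 8.81% of all protein-coding genes, 1.06% of those under 10 kb and 5.66% of those from 10 to 50 kb. In the order named, the lists had median bodies of 47.95, 27.2, 4.74, 17.2, 15.7 and 14.5 kb. The absences were not tested. In total 39 of 323 autosomal listed genes had a naive-only dense island.

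The genes with the most bases in naive-only dense islands were long. Cacna1c, a calcium channel gene, had 27.2 kb in 7 islands of 116 to 199 reads, with 21.0 kb of the body under day 3 islands and 52.6 kb under day 0 islands. Kif26b, a kinesin family gene, had 26.0 kb in 7 islands of 86 to 213 reads, with 8.8 kb on day 3 and 48.4 kb on day 0. The last 5 of its 7 islands formed a run of 139.6 kb free of day 3 islands, at 35.3 to 47.8 reads per kb. Grm8 had 25.4 kb, Pde4d 23.4 kb, Frmd4a 23.0 kb, Dpf3 21.8 kb and Eefsec 21.8 kb. Pde4d, a cyclic AMP phosphodiesterase gene, was far more covered on day 3 (287.4 kb) than on day 0 (124.0 kb), so its 6 islands were a small part of its coverage. In Dpf3, a chromatin remodelling subunit gene, the day 3 coverage was 2.6 kb and the day 0 coverage 27.2 kb.

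Pigu was the shortest gene of these 20 and the only one without day 3 coverage. It encodes a subunit of the transamidase that attaches GPI anchors to proteins. Its 3 islands held 289, 188 and 302 reads (36.1, 39.2 and 36.0 reads per kb) and covered 21.2 of 79.2 kb (26.8%), and the nearest day 3 islands were 61.6 to 95 kb away. Tjp1, which encodes a tight junction scaffold, held the second longest of all members, 15400 bp with 535 reads at 34.7 reads per kb, 6.8 kb from a day 3 island.

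**Figure D5:**
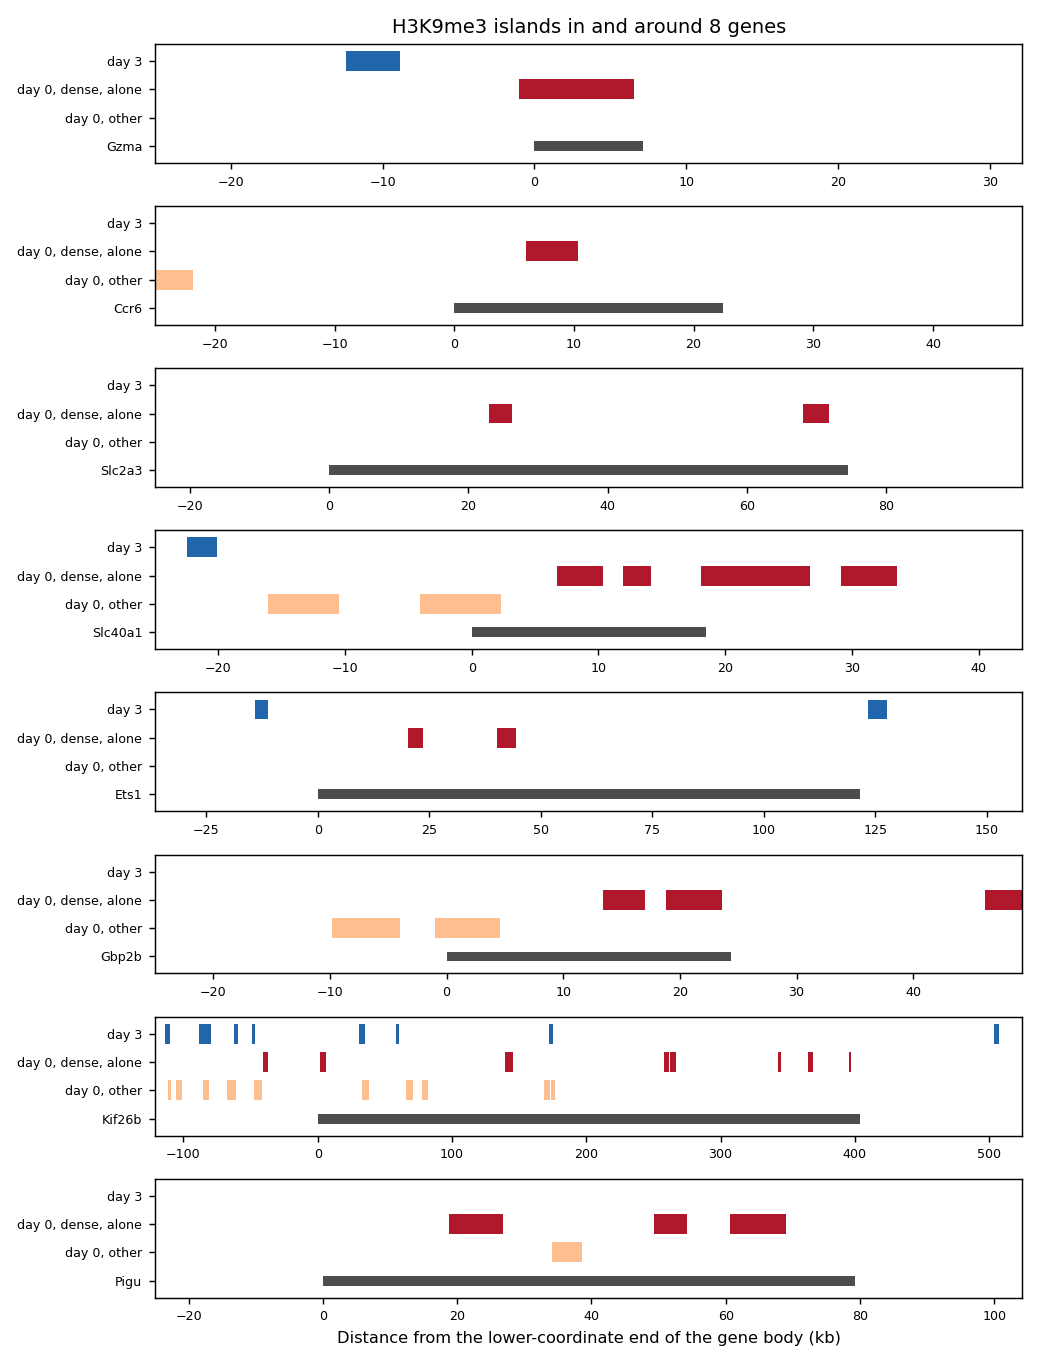
Islands of day 3 (blue), naive-only dense islands (red) and other day 0 islands (orange) in and around 8 genes (grey bars), against the distance in kb from the lower-coordinate end of the gene body (horizontal axes, a different scale for each gene). Gzma, Ccr6, Slc2a3, Slc40a1, Ets1, Gbp2b and Pigu have no day 3 island in the body, and Kif26b has 3. The whole body of Gzma and much of Slc40a1, Ccr6, Gbp2b and Pigu lie within 5 kb of a naive-only dense island, where the rule allows none.

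The maps of 8 genes show the different arrangements. In Gzma 1 island spans nearly the whole gene, in Pigu and Slc40a1 several islands lie close together, and in Kif26b naive-only dense islands alternate with shared ones before the run free of day 3 islands. The 8 genes were chosen for display after their values were seen.

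The 15 genes with the highest share of the body in naive-only dense islands were all short, at most 12.1 kb. In bodies this short and this covered, the 5 kb distance of the rule leaves no room for a day 3 island, so its absence there is no finding. After Gzma came Sostdc1, a secreted antagonist of BMP and Wnt signalling (80.1%, 254 reads at 35.3 reads per kb). Cd207, the langerin gene of Langerhans cells, had 76.0% covered by an island of 178 reads at 34.2 reads per kb, 113.8 kb from a day 3 island. Gip, an incretin hormone gene, had 73.5% (205 reads at 39.4 reads per kb), and Nhlh1, a neuronal transcription factor gene, had 71.6% (136 reads at 35.8 reads per kb). Ifitm2, an interferon-induced gene that restricts viral entry, had 67.8% covered by an island of 172 reads at 41.0 reads per kb (35.1 to 47.6), and the nearest day 3 island was 160.2 kb away. Eif4ebp3, a translation repressor gene, had 67.3%, and Gkn1, a gastric mucosa gene, had 63.6%. The other 7, Prss58, Svbp, Fgf20, Il17re, Cmtm5, Fsbp and Prickle4, lay between 55.9% and 62.2%. In all, 26 genes had at least 50% of the body in naive-only dense islands.

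Density set apart a few islands. The densest lay over the higher-coordinate end of Tmem267, chr13:119608801-119611600, with 326 reads at 116 reads per kb (104 to 129.8). The next was in the zinc finger gene Zfp992, chr4:146455001-146458200, with 276 reads at 86.3 reads per kb (76.4 to 97.0). Of the 15 densest, 4 lay on chromosome 4 in or nearest to Zfp992, Zfp981, Zfp978 and Zfp982, members of a family of closely related zinc finger genes. Near-identical copies can share or split reads there, and the sources used here do not say how reads with several matches were handled, so these counts are uncertain. An island of 10200 bp with 823 reads, 80.7 reads per kb (75.3 to 86.4), lay over the lncRNA gene 2700054A10Rik at chr17:13540401-13550600, with no day 3 island within 211.4 kb. It was the only one among both the 15 densest and the 15 longest. The remaining dense ones were mostly short, such as those of 1200 bp in Fbxw4 (76 reads, 63.3 reads per kb) and near Mmp3, a matrix metalloproteinase gene (75 reads, 62.5 reads per kb).

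The long islands were near the limit in density, at 34.2 to 39.0 reads per kb for 14 of the 15 longest. They included Eefsec (12800 bp, 445 reads), a gene of selenoprotein synthesis, and Cc2d2b (12200 bp, 424 reads). Another of 11000 bp and 386 reads lay across the boundary of Brca2, a DNA repair gene, and N4bp2l1. Iho1 and Mgat4d each held 1 of 11000 bp with 378 and 400 reads, and neither had day 3 coverage, which in much of each body follows from the rule.

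Gene families were counted by symbol, beside the 8.81% of all protein-coding genes. Slc transporters had 44 of 362 genes with a naive-only dense island (12.2%, median body 28.7 kb), phosphodiesterases 10 of 26 (38.5%, 106 kb) and Dock exchange factors 5 of 10 (median body 259 kb). Arhgap and Arhgef genes, regulators of small GTPases, had 12 of 54 (22.2%, 94.4 kb), and potassium channel genes 13 of 92 (14.1%, 34.5 kb). Zfp genes had 24 of 388 (6.19%), and 120 of the 388 had a day 3 island. Olfactory receptor genes had 10 of 1104 (0.906%), and 176 of the 1104 had a day 3 island. These day 3 counts stand beside 28.7% of all protein-coding genes with a day 3 island and 6.63% of those under 10 kb. Vomeronasal receptor genes had 1 of 231 in the first family and 1 of 123 in the second. Interleukin receptor symbols had 4 of 36 (11.1%), Il1rl1, Il31ra, Il17re and Il1rn, the last a receptor antagonist. The 3 families with the highest shares were also the 3 with the longest bodies. Per Mb of body, chemokine receptors (2 of 18 genes) had 11.3 islands, olfactory receptors 4.71, Dock genes 4.07, Slc genes 3.53, phosphodiesterases 3.41, interleukin receptors 3.03 and Arhgap and Arhgef genes 3.02. The second vomeronasal family had 0.612, cytochrome P450 genes (2 of 99) 0.724, potassium channels 1.69 and Zfp genes 1.97, and the value over all protein-coding genes was 2.34. These rates count every island that touches a body by at least 1 bp, which raises them where bodies are short. Olfactory receptor bodies had a median of 0.95 kb, against a median island of 3800 bp, and Olfr774 was touched by only 0.05 kb.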

How the data were processed

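The deposited lists give, for each ChIP library, the chromosome, start, last base and a whole-number read count of every significant island, with no column names. These whole numbers were read here as the authors' raw read counts, not scaled for depth, length or input, since the deposited lists do not name their unit. The submitters' processing notes name Bowtie2, SICER 1.1 and the mouse build mm10. The sources used here do not give the threshold, the gap size or how duplicates and reads with several matches were treated. The 2 input libraries were not analysed here. A list of islands does not give the library's mapped depth.

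Density was computed as reads over island length. Genes, promoters and microRNAs came from RefSeq tables of GRCm38.p6, with a minimum overlap of 1 bp. All 329 symbols of 18 lists were found, 323 of them on autosomes. Promoter windows were available for 16457 of the 20665 autosomal protein-coding genes and for none on chromosome 18. Shares carry 95% Wilson intervals, their differences Newcombe intervals and read counts exact Poisson intervals. No test between days, no set test and no resampling was made. The scripts ran in Python 3.11.15 with numpy 2.4.6, pandas 2.3.3, scipy 1.17.1 and matplotlib 3.10.9 and were tested on simulated data.

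The members and the lists were chosen with earlier results of these data known, so no count of listed genes is independent support. Genes were named by rule. They were the 20 with the most bases in members (predicted symbols left out, at most 2 per symbol stem), the 15 of at least 2 kb with the highest share of the body, those in or nearest to the 15 densest and 15 longest members, every listed gene with a member, and the 20 densest with a start or promoter window in one. Genes named as part of a run, a window or a family, and Gdpd1, Tmem8b, Mtr and Fcrl5, were chosen after their values were seen. Alternatives changed the distance, the density limit, the day 3 list, the island length, the overlap and the flank. Some genes that met these rules are not reported here.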

Additional observations from a re-analysis of the deposited data

Results flagged for a closer look

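Islands off the autosomes lie outside the rule, and 2 of the 5 day 0 islands there met its density and distance limits. The day 3 list held only 8 islands off the autosomes, so distances to a day 3 island say little there. On chromosome X the island chrX:169982201-169983200 held 211 reads over 1000 bp (exact 95% Poisson interval of the count 183 to 241), which is 211 reads per kb, in Mid1, a ubiquitin ligase gene. Its nearest day 3 island was 56143 kb away. On chromosome Y the island chrY:258801-259400 held 99 reads over 600 bp (80.5 to 121), which is 165 reads per kb, with no annotated gene and no day 3 island within 90538 kb. Both were denser than all 4738 autosomal members, whose highest density was 116 reads per kb. They were singled out as signal outside the comparisons above. The input libraries were not analysed here, and no cause was tested.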

How the results depend on the processing

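No paired analysis was possible because each day has 1 ChIP library. The 4738 members became 2562 with no day 3 island within 20 kb, 1190 within 50 kb, 907 at 40 or more reads per kb, 645 with a Poisson lower bound at the limit and 10181 with no minimum density. In the same order, the 1820 genes became 1035, 523, 422, 294 and 3304, the 39 listed genes 24, 14, 7, 8 and 70, and the 850.4 kb of members in named genes 456.5, 227.2, 109.0, 113.4 and 1380.9 kb. Of 107 named genes with a member, 39, 73, 74 and 79 lost it under the first 4, among them Gzma under all 4. The share in protein-coding genes, 48.1%, was 45.8% by midpoint, 45.9% with at least 50% of the island inside, 49.8% with no overlap alone and 50.6% at 50 kb. The share with another member within 100 kb, 46.7%, was 35.6% (20 kb), 31.2% (50 kb), 14.6% (40 reads per kb), 13.0% (Poisson), 66.5% (no minimum), 55.3% (no overlap), 57.0% (day 3 list of equal length), 56.1% (day 3 islands of at least median density) and 42.2% (at least 3 kb), and 29.4% within 50 kb and 88.7% within 500 kb. Flanking coverage was 7.88% on day 3 and 6.40% on day 0 to 20 kb, and 9.23% and 6.02% to 200 kb. Of 162 values for single lists 60 moved by over 1.5 times, and of 1071 for named genes 393. Fewer islands pass each stricter setting by construction, and other causes were not tested. The depth of the libraries and the raw counts limit any reading of density between days.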
